A study of Rattus norvegicus with 4 samples.

Results

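The genes described here are 9 genes of the satellite cell and of myoblast fusion: Pax7, Cdh15, Itga7, Vcam1, Sdc3, Sdc4, Met, Notch1 and Mymk. They were taken as every probe set annotated to exactly 1 of these symbols, which gave 13 probe sets for 8 of the 9 genes, out of 14217 genes and 20826 probe sets with 1 symbol. No probe set here was annotated to Pax7 alone, so Pax7, the transcription factor that defines the satellite cell, was not analysed here. The tissue was soleus, a slow muscle of the hindlimb, taken from male rats of the Wistar strain aged 10 weeks at the start (14 weeks in the age label). The 4 groups were the denervated and the sham-operated soleus of rats fed AIN-93G diet with genistein at 0.05% (0.5 g per kg), and the denervated and the sham-operated soleus of rats fed a modified AIN-93G control diet, with corn oil in place of its soybean oil. The diets ran for 24 days, the left sciatic nerve was cut on day 14 with a sham operation on the right leg, and muscle was taken 10 days after that. Genistein is a soy isoflavone that binds oestrogen receptors, and the study's title concerns its effect on muscle loss after denervation.

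RNA of 8 rats was pooled per group and each pool was read on 1 Affymetrix array: there were no replicates and no test was run. For each diet the denervated pool holds the left and the sham pool the right legs of the rats. The groups follow the sample titles, because the treatment field of 2 samples contradicts title, source name and description. On each array, 58.5% to 60.8% of probe sets lay above a floor of 78.9 units, the 40th percentile of all signals, to which dimmer signals were raised. All 7 measured denervation markers, including the acetylcholine receptor subunit Chrna1 (log2 ratio 3.35 on genistein and 3.47 on the control diet), were at least 2-fold higher in denervated than in sham muscle in both diets. All 8 fibre markers listed lay above the floor, with Myh7, the slow myosin heavy chain, at 24104 and 46466 units in genistein denervated and sham muscle and at 29532 and 48928 units in control denervated and sham muscle.

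Satellite cells are the resident stem cells of skeletal muscle and lie between the fibre and its basal lamina. They stay quiescent under Notch signalling, become myoblasts after injury, and then fuse with each other or with fibres through the membrane proteins myomaker (Mymk) and myomerger (Mymx). They are a small minority of the nuclei of whole muscle, and several of the genes below are also expressed in fibres or blood vessels. In pooled whole muscle, fewer cells of a type and less RNA per cell cannot be told apart.

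After denervation the measured members were mostly at lower signal, and none differed 2-fold. On genistein 0 of 7 measured members were higher by 2-fold or more and 0 were lower by as much, against 4.96% and 6.57% of 10810 measured genes, while 2 were above 0 and 5 below 0 on the log2 scale, against 51.7% and 48.3%. On the control diet the counts were again 0 and 0 of 7, against 5.04% and 7.63% of 10755 genes, with 1 above 0 and 6 below 0, against 49.8% and 50.2%. The median log2 ratio of the members, denervated over sham, was -0.31 on genistein (0.02 over all genes) and -0.62 on the control diet (0.00 over all genes). The genistein median is the value of Sdc3, a bound: Sdc3 was measured there through its sham signal alone and could count on the lower side only. Over the 6 members above the floor on all 4 arrays, 4 were below 0 and 2 above 0 on genistein (median -0.27) and 6 were below 0 on the control diet (median -0.67). Of 6 members measured in both diets, 4 were below 0 in both (Cdh15, Itga7, Sdc4 and Vcam1), against 38.2% of 10414 genes. The other 2, Mymk and Notch1, were above 0 on genistein and below 0 on the control diet, and such opposite signs were found in 20.8% of those genes. For Notch1 the genistein ratio was near 0, at 0.12 and at 0.03 on its second probe set.

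Scatter was gauged from genes with several probe sets, whose log2 ratios departed from the gene's mean with an SD of 0.37 for denervation on genistein and 0.36 on the control diet. For diet this SD was 0.27 in sham and 0.25 in denervated muscle. This SD holds no scatter between pools, since a gene's probe sets sit on the same arrays. Scaling the arrays to the hybridisation controls, spiked RNAs added to each sample, moved the median denervation ratio of all genes to 0.48 on genistein and 0.35 on the control diet. Where the sign of a ratio changes under that scaling, its value relative to these medians is given too.

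**Figure D1:**
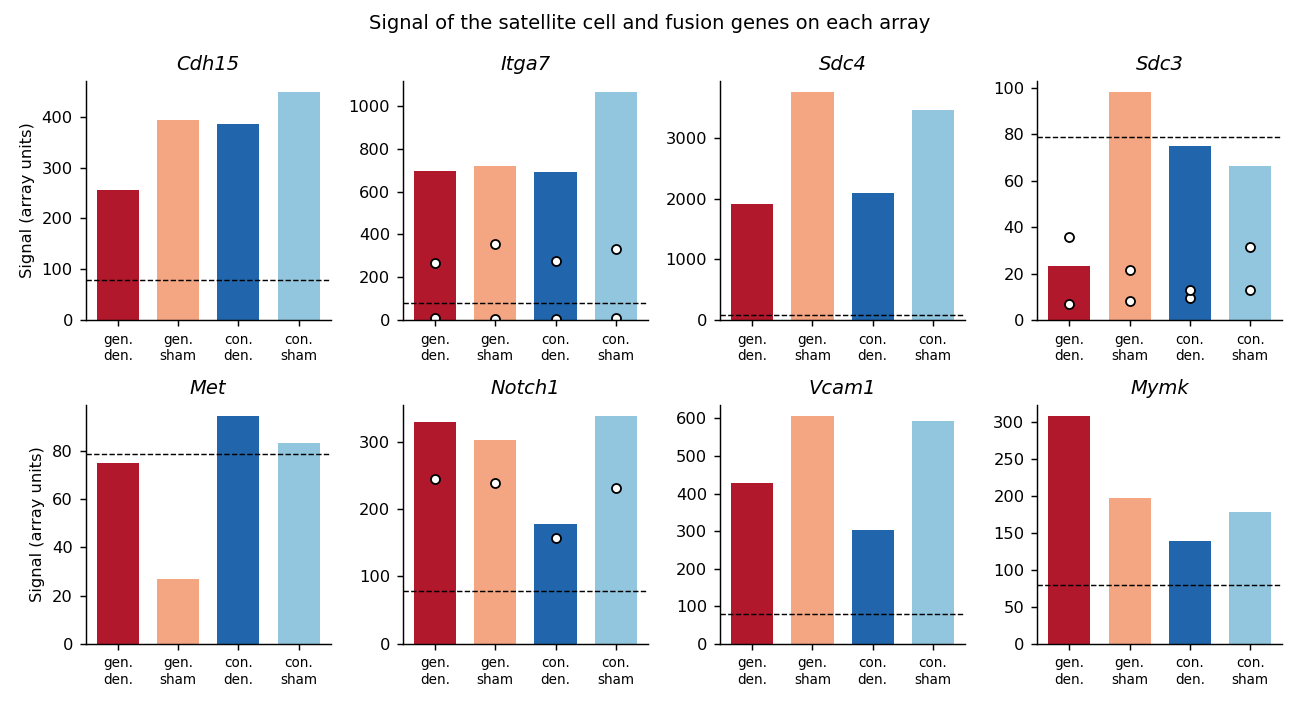
Signal of each member (y axis, array units, linear from 0) on the 4 arrays: genistein denervated (gen. den.), genistein sham (gen. sham), control denervated (con. den.) and control sham (con. sham). Bars show the brightest probe set, open circles the other probe sets and the dashed line the floor of 78.9 units. Cdh15, Itga7, Sdc4 and Vcam1 are lower in both denervated pools than in both sham pools in these deposited signals, narrowly so for Cdh15 and Itga7. Mymk is highest in genistein denervated muscle at 308 units, and Sdc3 and Met lie around the floor.

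Among the adhesion molecules, Vcam1 and Cdh15 were lower in denervated muscle in both diets. Vcam1 encodes a cell surface partner of the integrin alpha4 beta1 that is found on satellite cells and on activated endothelium. It read 428 units in genistein denervated and 606 in genistein sham muscle, and 304 units in control denervated and 592 in control sham muscle. Both denervated pools thus lay below both sham pools in the deposited signals, as they did, narrowly for the first 2, for Cdh15, Itga7 and Sdc4. Under median scaling the order failed for Cdh15 and Itga7. There the log2 ratios to control sham were -0.13 in control denervated and -0.20 in genistein sham muscle for Cdh15, and -0.54 and -0.58 for Itga7. Under hybridisation control scaling, which raised the denervation ratios of all genes, the order held for Sdc4 alone. The log2 ratios of Vcam1 were -0.50 on genistein and -0.96 on the control diet, each larger than the probe set SD.

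Cdh15 encodes M-cadherin, which holds the satellite cell to its fibre. Its signal was 257 units in genistein denervated and 395 in genistein sham muscle, and 386 units in control denervated and 448 in control sham muscle. The genistein denervated pool was the lowest, at a log2 ratio of -0.62 to its sham. On the control diet the ratio of -0.22 was within the probe set SD, and under hybridisation control scaling it was 0.15, which is -0.20 relative to the median of all genes.

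Itga7 encodes the integrin alpha7 chain, a laminin receptor of both satellite cells and fibres. Its brightest probe set read 699 units in genistein denervated and 722 in genistein sham muscle, and 691 units in control denervated and 1064 in control sham muscle. The control sham pool stood above the other pools, which lay within a narrow range, so the denervation ratio was -0.05 on genistein and -0.62 on the control diet. Under hybridisation control scaling the genistein ratio was 0.44, or -0.05 relative to the median of all genes. A second probe set did not show this order: it read 268, 356, 277 and 332 units in genistein denervated, genistein sham, control denervated and control sham muscle, with ratios of -0.41 on genistein and -0.26 on the control diet. The remaining probe set of Itga7 read 6.4 to 11.8 units, below the floor.

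Syndecans are heparan sulphate proteoglycans that present growth factors to their receptors, and Sdc3 and Sdc4 are the 2 forms used to mark satellite cells. Sdc4 had the largest denervation ratio of the members on genistein. It read 1914 units in genistein denervated and 3751 in genistein sham muscle (log2 ratio -0.97, 1.96-fold lower), and 2093 units in control denervated and 3455 in control sham muscle (-0.72, 1.65-fold lower). Both denervated signals lay below both sham signals, as they did for Cdh15, Itga7 and Vcam1 in the deposited signals. Only for Sdc4 did this order hold under every scaling tried. The share of all genes with this order was not counted. Below 0 in both diets, a looser condition, were 38.2% of 10414 genes. The order of the 2 diets was reversed between the operations, with differences of 1.09-fold in each.

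Sdc3 was hardly measurable. Its brightest probe set read 23.3 units in genistein denervated and 98.0 in genistein sham muscle, and 75.0 units in control denervated and 66.2 in control sham muscle. Only genistein sham muscle was above the floor, and denervated muscle on that diet was at least 1.24-fold lower. The other 2 probe sets of Sdc3 read 6.8 to 35.6 units.

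Promoter sequences, 250 bases before to 50 after an annotated start in RefSeq's GRCr8 assembly, are shown for the 3 members with lower signal in both denervated pools for which the RefSeq promoter table held an entry. Capitals mark 2 motifs searched on both strands, the general E-box CANNTG and the NF-kappaB consensus site. Myogenic factors such as MyoD and myogenin bind some forms of the E-box, and its forms were not told apart here. The Cdh15 window is chr19:67814407-67814706 on the plus strand, the Sdc4 window chr3:173592874-173593173 on the minus strand and the Vcam1 window chr2:206742734-206743033 on the minus strand. The Cdh15 window lies inside the annotated gene, which begins at base 67812169, and so not at the gene's first base.
Cdh15: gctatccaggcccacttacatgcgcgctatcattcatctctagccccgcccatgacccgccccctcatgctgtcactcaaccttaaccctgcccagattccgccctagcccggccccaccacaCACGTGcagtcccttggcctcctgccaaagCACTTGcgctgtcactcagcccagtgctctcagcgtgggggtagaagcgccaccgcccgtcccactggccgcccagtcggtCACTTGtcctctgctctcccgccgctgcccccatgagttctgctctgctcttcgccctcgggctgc
Sdc4: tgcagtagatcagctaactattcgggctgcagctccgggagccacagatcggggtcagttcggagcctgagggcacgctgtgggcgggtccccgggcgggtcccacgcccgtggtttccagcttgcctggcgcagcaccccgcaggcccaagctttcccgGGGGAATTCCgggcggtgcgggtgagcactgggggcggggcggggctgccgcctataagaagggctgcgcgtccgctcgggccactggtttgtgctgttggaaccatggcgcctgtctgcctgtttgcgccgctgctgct
Vcam1: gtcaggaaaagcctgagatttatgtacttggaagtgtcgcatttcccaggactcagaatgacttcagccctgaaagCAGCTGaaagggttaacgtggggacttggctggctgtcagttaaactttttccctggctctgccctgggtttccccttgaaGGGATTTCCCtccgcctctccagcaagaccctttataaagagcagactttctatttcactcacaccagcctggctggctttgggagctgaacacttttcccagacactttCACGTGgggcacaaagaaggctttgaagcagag
The Cdh15 window holds 3 E-boxes, the Vcam1 window 2 and the Sdc4 window 0. Of 33469 rat promoter windows, 16.6% hold 3 or more. At least 1 E-box is found in 72.1% of the windows. The NF-kappaB consensus matched 1 time each in the Sdc4 and the Vcam1 window and in 4.18% of all windows. It had 0 matches in the Cdh15 window and in the windows of Pax7, Sdc3, Met and Notch1, which are not shown. Both motifs were chosen with the data known, and a narrower form of this site, tried first, did not match Sdc4. The matches are therefore no evidence of enrichment. A match is a description of these letters only, and binding was not measured.

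Met and Notch1 are the receptors of the group. Met, the receptor of hepatocyte growth factor, which wakes satellite cells, read 75.1 units in genistein denervated and 26.8 in genistein sham muscle, and 94.5 units in control denervated and 83.5 in control sham muscle. Only the control pools were above the floor, with a denervation ratio of 0.18, so no ratio is given on genistein. Its ligand gene Hgf was below the floor on all 4 arrays, at 7.8 to 22.3 units.

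Notch1, a receptor whose signalling keeps satellite cells quiescent and which also acts in blood vessels, was low in 1 pool. Its brightest probe set read 329 units in genistein denervated and 302 in genistein sham muscle, and 177 units in control denervated and 338 in control sham muscle. Control denervated muscle stood below the other 3 pools, which lay close together, and the denervation ratio was 0.12 on genistein and -0.93 on the control diet. The second probe set had the same order between operations, at 244, 239, 157 and 232 units, with ratios of 0.03 and -0.56.

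Mymk, the myoblast fusogen myomaker, was highest in genistein denervated muscle. It read 308 units there and 197 in genistein sham muscle, a log2 ratio of 0.65. On the control diet it read 139 units in denervated and 178 in sham muscle, a ratio of -0.36 (0.01 under hybridisation control scaling, which is -0.34 relative to the median of all genes). Its fusion partner Mymx was not on the annotated list of probe sets and was not analysed here.

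**Figure D2:**
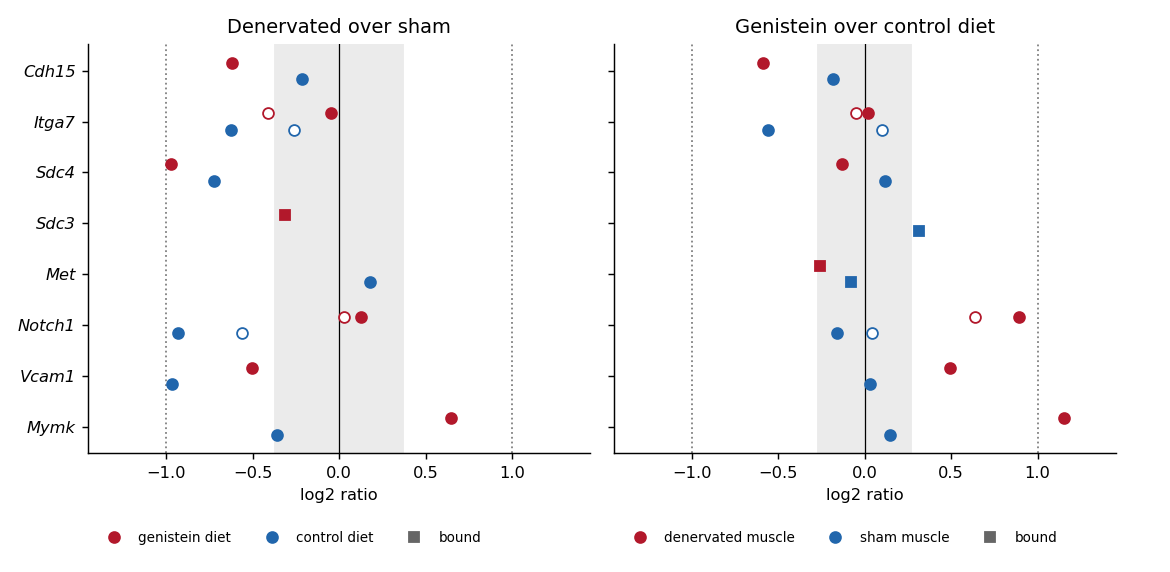
log2 ratios (x axis) of each member's probe sets for denervated over sham muscle in the left panel (red, genistein diet; blue, control diet) and for genistein over control diet in the right panel (red, denervated muscle; blue, sham muscle). Filled symbols are the brightest probe set, open circles other probe sets, squares bounds with 1 side at the floor, the grey band the probe set SD (the larger of the 2 comparisons in a panel) and dotted lines a 2-fold difference. Mymk at 1.15 in denervated muscle is the 1 point past 2-fold.

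The next comparison was that of the diets. In sham muscle 0 of 8 measured members were higher on genistein by 2-fold or more and 0 were lower by as much, against 0.324% and 0.287% of 10819 genes. Above 0 were 4 and below 0 were 4, against 50.5% and 49.5%, with a median of -0.02 (0.00 over all genes). Itga7 had the largest of these ratios, -0.56, but its second probe set gave 0.10. The others lay between -0.18 (Cdh15) and 0.31 (Sdc3, a bound).

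In denervated muscle 1 of 7 measured members, Mymk, was at least 2-fold higher on genistein, against 1.02% of 10479 genes, and 0 of 7 were at least 2-fold lower, against 0.124%. Above 0 were 4 and below 0 were 3, against 50.0% and 49.9%. Mymk read 308 units on genistein and 139 on the control diet, 2.22-fold higher, and 0.525% of genes had a higher ratio. Notch1 followed with a ratio of 0.89 (0.64 on its second probe set) and Vcam1 with 0.50, both beyond the probe set SD of 0.25. Cdh15 went the other way at -0.59, with 1.77% of genes lower. Met was at least 1.20-fold lower on genistein (log2 bound -0.26). Sdc4 was at -0.13 and Itga7 at 0.02. The Itga7 ratio was -0.12 under median scaling and -0.01 under quantile normalization, and 0.01 relative to the median of all genes under either. The members' median was 0.02, against 0.00 over all genes. It was -0.06 under median scaling (0.07 relative to all genes) and -0.02 under quantile normalization (-0.00 relative to all genes). Over the 6 members above the floor on all 4 arrays, which leaves out the bound of Met, the median of the deposited ratios was 0.26.

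The difference between the diets in their denervation ratios, genistein minus control, was at least 2-fold for 2 of 6 members, Notch1 (1.05) and Mymk (1.01), against 2.00% of 10414 genes, and 0 of 6 were at least 2-fold lower, against 0.739%. Itga7 was at 0.58 (-0.15 on its second probe set) and Vcam1 at 0.46, with Sdc4 at -0.25 and Cdh15 at -0.40. Both values past 2-fold lay close to it: for Notch1 the second probe set gave 0.59, and under median scaling and quantile normalization neither gene passed 2-fold. Under median scaling Notch1 was 0.94 and Mymk 0.89, with the median of all genes shifted to -0.11. Under quantile normalization they were 0.95 and 0.87, with all genes at -0.01. This difference, the diet ratio in denervated muscle and the denervation ratio on the control diet all use the control denervated array. On that array the 3' over 5' actin probe ratio, which reflects RNA degradation, was 3.79, against 2.76 in genistein denervated, 2.32 in genistein sham and 2.08 in control sham muscle. The Gapdh probes did not rank the arrays alike. Their ratio was 1.14 in control denervated, 1.13 in genistein denervated, 1.20 in genistein sham and 1.24 in control sham muscle. The part of RNA quality in the results was not tested.

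**Figure D3:**
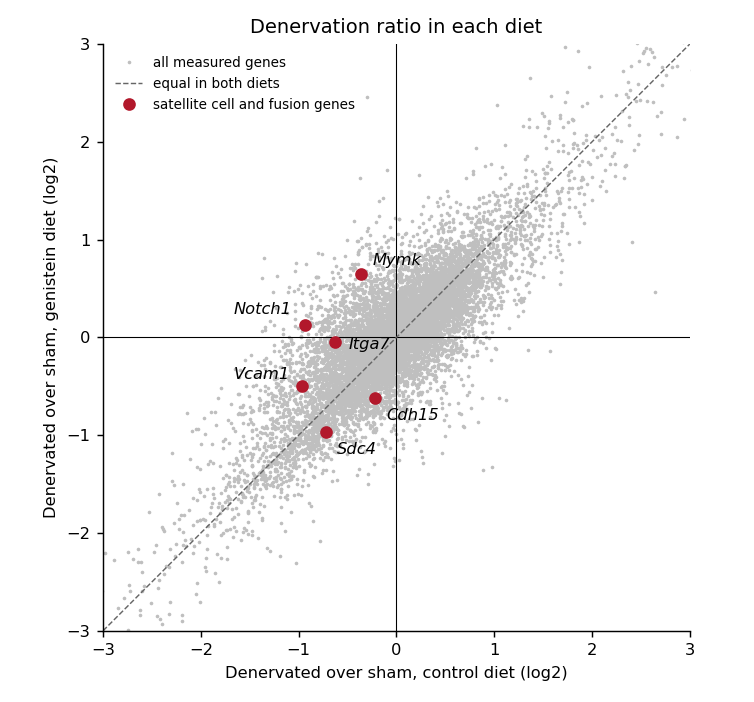
Denervated over sham log2 ratio on the control diet (x axis) and on the genistein diet (y axis) for 10414 measured genes (grey) and 6 members (red). The dashed line marks equal ratios, and 78 genes outside -3 to 3 are not shown. Mymk and Notch1 lie above the line and above 0 on genistein, Sdc4 and Cdh15 below the line.

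For each of the 6 members above the floor on all 4 arrays, the 2 genes with the most similar profile were taken by Euclidean distance of log2 signals centred over the 4 arrays, among 9361 other genes. With 4 arrays and so many genes, close matches are common, and the names are a description. Mymk had the least close neighbours, Sned1 at a distance of 0.11 and Tcn2 at 0.17. Notch1 was nearest to Llph and Ecm2 (both 0.04), Vcam1 to Irak3 and Epha4 (both 0.03), and Sdc4 to Lman2 (0.01) and Pank4 (0.03). The nearest to Cdh15 were Ube3b (0.05) and Kif13a (0.07), and to Itga7 Zfp367 (0.07) and Pim3 (0.08).

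Other genes of the same cells and pathways were counted in lists. Ratios of genes with 1 side at the floor enter the list counts and medians as bounds. Beside all list counts stand the shares of all measured genes. At least 2-fold higher and lower after denervation were 4.96% and 6.57% on genistein, and 5.04% and 7.63% on the control diet. Below 0 were 48.3% on genistein and 50.2% on the control diet. Of the other satellite cell genes, 1 of 15 measured was at least 2-fold higher and 1 lower in denervated muscle on genistein, and 1 and 2 of 16 on the control diet. The higher one was Ncam1, the neural cell adhesion molecule that denervated fibres also display, with log2 ratios of 2.91 on genistein and 2.52 on the control diet for the brightest probe set. All 3 of its probe sets spanned ratios from 0.39 to 2.91 and from 0.00 to 2.52. Tnfrsf12a, the receptor of the cytokine TWEAK, was at -1.55 and -2.01, and Nes, the intermediate filament nestin, at -0.78 and -1.54. Nes was also 1.03 higher (log2) on genistein than on the control diet in denervated muscle. It was the 1 of 16 past 2-fold in that comparison, where 1.02% of all genes were at least 2-fold higher. Chrdl2 was at -0.66 and -0.61. The list medians were 0.02 on genistein, which was -0.01 under median scaling and -0.04 under quantile normalization, and -0.25 on the control diet, which was 0.13 under hybridisation control scaling (-0.22 relative to all genes).

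The myogenic regulators were mostly higher in denervated muscle. On genistein 5 of 10 were at least 2-fold higher and 1 lower, against 4.96% and 6.57% of all genes. On the control diet the counts were 4 and 0 of 10, against 5.04% and 7.63%. Myod1 and Myog, the factors that commit and differentiate myoblasts and are also induced in denervated fibres, had log2 ratios of 3.63 and 2.09 on genistein and of 3.43 and 1.82 on the control diet. Id2, an inhibitor of such factors, was at 1.06 and 1.21, and the homeobox gene Six4 at 1.12 and 1.02. The satellite cell factors Pax3 and Myf5 were not analysed here. The medians were 0.74 on genistein and 0.55 on the control diet, positive under every scaling tried.

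Among other fusion genes, 19 of 26 measured were below 0 on genistein (48.3% of all genes) and 16 of 25 on the control diet (50.2% of all genes). At least 2-fold lower were 2 and 4, with 0 at least 2-fold higher in either diet. By the mean of both diets the lowest was Cav3, caveolin-3 of the fibre membrane, at -1.68 on genistein and -1.75 on the control diet. Next by that mean were Anxa5, a phospholipid-binding annexin, at -0.93 and -1.43, and Nfatc2, a calcium-regulated factor in muscle growth, at -1.15 and -1.07. Boc, a cell surface receptor that promotes myogenic differentiation, was at 0.76 and 0.89. The medians were -0.13 and -0.31, which were 0.36 and 0.00 under hybridisation control scaling and -0.13 and -0.35 under it relative to all genes.

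In the Notch pathway 1 of 25 genes was at least 2-fold higher and 2 lower in denervated muscle on genistein, and 2 and 1 of 27 on the control diet. The medians were 0.00 on genistein and 0.06 on the control diet, and the genistein value was 0.48 under hybridisation control scaling, close to the shift of all genes. Hes6, a Hes family member that promotes differentiation, was at 1.31 on genistein and 1.01 on the control diet, and Jag2, a Notch ligand, at -1.13 and, as a bound, -1.47. Rbpj, the DNA-binding partner of active Notch, was at 0.52 and 0.57. Hey1, a Notch target, was at -0.21 and -0.80, while Hes1, another target, was at -0.20 and 0.41. Among ligands, Jag1 was at 0.33 and -0.17 and Dll4 at -0.21 and 0.10.

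Of the HGF and Met pathway, 1 of 12 genes on genistein and 1 of 13 on the control diet was at least 2-fold higher and 0 lower, with medians of 0.10 and 0.00. That gene was Pik3r1, a regulatory subunit of PI3-kinase, at 2.17 and 2.38. Laminins, integrins and their attachment proteins, the partners of Itga7, had medians of -0.55 on genistein, with 2 of 27 at least 2-fold higher and 2 lower, and -0.83 on the control diet, with 2 higher and 12 lower. Itgb1bp2, the muscle chaperone melusin that binds integrin beta1, was at -3.19 and -3.65, while Itgb1, the beta1 chain that pairs with alpha7, was at 0.21 and 0.17. Lama2, the laminin chain of the fibre's basal lamina, was at -0.76 and -0.85, and Tln2, a talin, at -1.31 and -1.48. The brighter probe set of Itga9 gave 1.77 and 2.35, and the other 0.09 and 0.16.

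Heparan sulphate proteoglycan genes had medians of -0.08 on genistein and -0.17 on the control diet, which were 0.40 and 0.20 under hybridisation control scaling (-0.08 and -0.15 relative to all genes). On genistein 1 of 23 was at least 2-fold higher and 0 lower, and on the control diet 1 higher and 3 lower. Sdc2, the syndecan of mesenchymal cells, was at -0.75 and -1.22, and Sdc1 at -0.53 and -0.44. Gpc4, a glypican, was at 0.81 and 1.31, and Ext1, an enzyme of heparan sulphate chain synthesis, at -0.83 and -1.29. Cadherins and catenins had medians of 0.04 and -0.24 (0.52 and 0.05 under hybridisation control scaling, 0.04 and -0.30 relative to all genes), with Ctnna1, alpha-catenin, at 1.24 and 1.07, Ctnnb1 at -0.06 and 0.01, and Cdh2, N-cadherin, at -0.29 and, as a bound, -0.26. The partners of Vcam1 and endothelial adhesion genes had 0 members past 2-fold, with medians of -0.13 on genistein (0.27 under hybridisation control scaling, -0.22 relative to all genes) and 0.26 on the control diet. Itga4, the alpha4 chain of the integrin that Vcam1 binds, was not analysed here.

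Of 18 proliferation genes, 4 were below the floor on all 4 arrays. Of those measured, 0 were at least 2-fold higher, and 2 of 12 on genistein and 2 of 14 on the control diet were at least 2-fold lower. The medians were -0.11 and -0.29, the first 0.22 under hybridisation control scaling (-0.26 relative to all genes). Bub1, a mitotic checkpoint kinase, was at -1.32 and -1.06, and Ccnd1, cyclin D1, at -0.75 and -1.40.

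Summed markers of vessels, connective tissue and leukocytes were, like Vcam1, lower in the denervated than in the sham pool of each diet and lowest in control denervated muscle. Notch1 shared the lowest pool with them, but on genistein its denervated signal was not below sham. Of 11 endothelial markers, 9 were below 0 after denervation on genistein and 11 on the control diet, against 48.3% and 50.2% of all genes. The medians were -0.45 on genistein (0.03 under hybridisation control scaling, -0.46 relative to all genes) and -1.02 on the control diet. The endothelial markers summed to 4333 units in genistein denervated and 5660 in genistein sham muscle. In control muscle the sums were 2899 units for denervated and 5698 for sham. No endothelial, fibroblast or leukocyte marker was below the floor on all 4 arrays. Between the diets in denervated muscle, 10 of 11 endothelial markers (median 0.57), 10 of 10 fibroblast markers (0.73) and 9 of 9 leukocyte markers (0.74) were above 0 on genistein. The share over all genes was 50.0%. The fibroblast markers summed to 44822 units in genistein denervated, 62378 in genistein sham, 26304 in control denervated and 61652 in control sham muscle, and the leukocyte markers to 7539, 8281, 4465 and 7860 units. Smooth muscle and pericyte markers had a median of 0.39 in that comparison, above 0 in 6 of 6, and Schwann cell markers 0.48, above 0 in 3 of 4. Fibre markers, 7 of 8 below 0 against 49.9% of all genes, went the other way, as did Cdh15. The fibre marker median was -0.21, and -0.02 under quantile normalization. In sham muscle 8 of 8 fibre markers were below 0 between the diets, against 49.5% of all genes. Their median was -0.12, and -0.00 under quantile normalization. The part of these markers in the members' values was not tested.

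**Figure D4:**
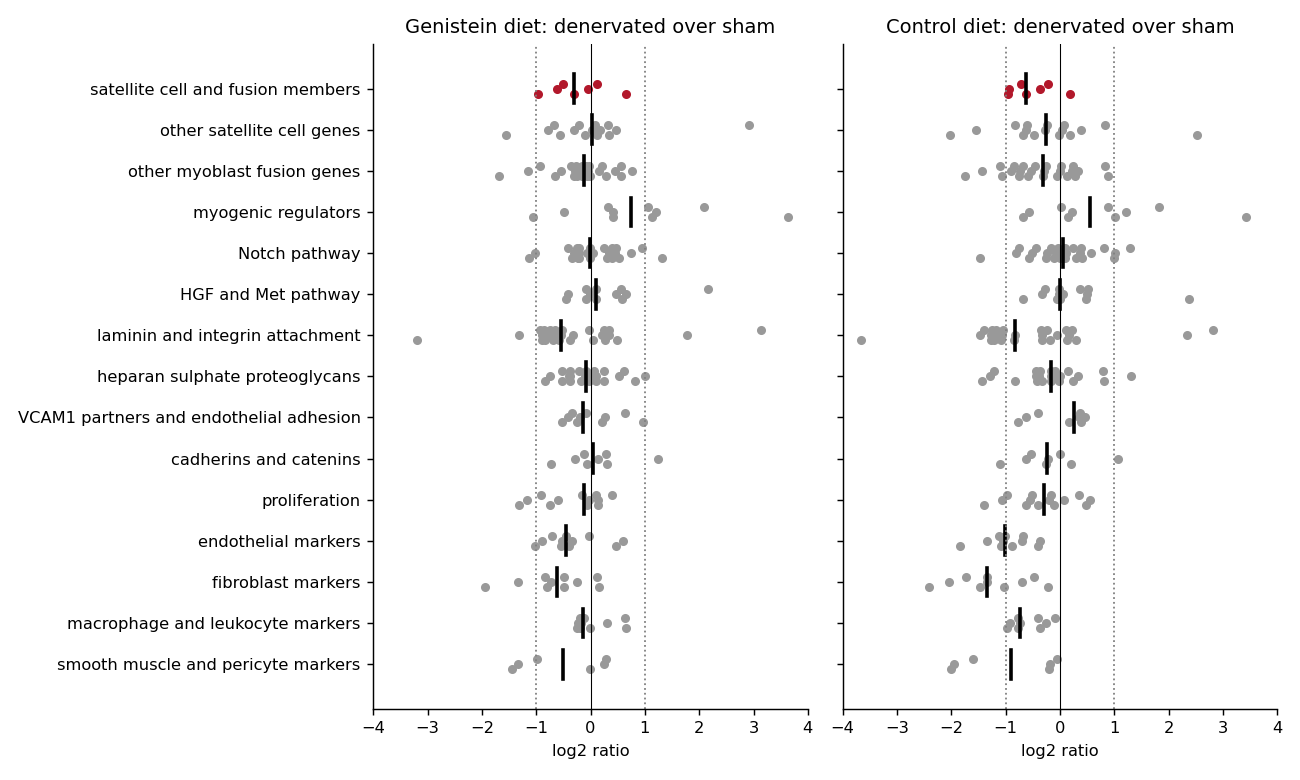
Denervated over sham log2 ratios (x axis) of the members (red) and of the genes of 14 other lists (grey), 1 point per measured gene, for the genistein diet (left) and the control diet (right). Black bars are medians and dotted lines a 2-fold difference. Members lie between -0.97 and 0.65 on genistein and between -0.96 and 0.18 on the control diet, and the medians of the endothelial and fibroblast markers are -0.45 and -0.61 on genistein and -1.02 and -1.35 on the control diet.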

How the data were processed

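RNA of 8 rats per group was pooled and hybridised to 1 Affymetrix array per group after biotin labelling with a 3' IVT kit, per the labels' protocols. For each probe set the authors deposited a linear signal intensity, and GCOS 1.1 is named in the submitters' processing notes. The mean intensity after removal of extreme probe sets was 497 to 498 units on every array, so the deposited values were used as scaled by the authors. The scaling target and detection calls are not given in the sources used here, and depth has no counterpart on an array: the number of arrays limits the precision.

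Of 31099 probe sets, 57 controls were set aside. The platform annotation gave 1 symbol to 20826, several to 436 and none to 9780, and 20758 gene identifiers matched GRCr8, with 0 symbols updated. Where a gene had several probe sets, the brightest by mean log2 signal stood for it. Signals below the 40th percentile (78.9 units) were raised to it before log2 ratios were taken, and a gene counted as measured where at least 1 array of a pair was above it. Calls are differences of at least 2-fold, with no test. The members, lists and the rule for named genes (up to 4 per list by mean denervation ratio, plus direct partners of members) were chosen with earlier results of these data known. The calculation was tested on simulated arrays, with changes larger than the members' ratios, in bright genes and with little noise. That test does not bear on ratios of the members' size. Alternatives are other floors, scalings and probe set rules. Promoter motifs were chosen with the data known, and a narrower form of the NF-kappaB site, tried first, matched Vcam1 but not Sdc4. Python 3.11.15, numpy 2.4.6 and pandas 2.3.3 were used.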

Additional observations from a re-analysis of the deposited data

Results flagged for a closer look

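Mymk had denervation ratios of opposite direction in the 2 diets, both larger than the probe set SD. The log2 ratio was 0.65 on genistein and -0.36 on the control diet, the second at the edge of that SD (0.36). The difference was not tested, since each diet has 1 denervated and 1 sham array.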

How the results depend on the processing

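No paired analysis was possible because each group was 1 array. Of 229 single member ratios recomputed under the alternatives, 210 moved by less than the probe set SD (for the difference between diets, the root sum of squares of both denervation SDs, 0.51) and 222 kept their sign, the exceptions being Itga7 in denervated muscle between diets and on genistein, Cdh15 and Mymk on the control diet, and Notch1 between diets in sham muscle. Under hybridisation control scaling the members' median denervation ratio was 0.10 on genistein and -0.13 on the control diet, with 1 member at least 2-fold higher on genistein and 2 at least 2-fold higher on genistein than on the control diet in denervated muscle. That scaling shifts all genes: relative to their median, Mymk was 0.64 after denervation on genistein, and between diets in denervated muscle Mymk was 1.15 and Notch1 0.90. For the difference between diets, Notch1 was 0.59 with its dimmest probe set and Itga7 0.14 with the mean of all probe sets. With no floor, 1 member was higher and 1 lower by 2-fold or more after denervation on genistein, and 1 at least 2-fold lower in either diet comparison and in the difference between diets: these were Met and Sdc3, whose signals lie around the floor. With the floor at the 60th percentile 0 members were at least 2-fold higher between diets in denervated muscle (Mymk 0.50) and 0 in the difference between diets. That floor lay above the control denervated signals of Mymk and Notch1, so 0.50 and the 0.60 of Notch1 are bounds. Mymk had no control diet denervation ratio there and left the difference between diets, where Notch1 was 0.76. That difference held 0 members at least 2-fold higher under median scaling, which shifted its median over all genes to -0.11, and under quantile normalization. It held 1 with the dimmest probe set or the mean of all probe sets. Under quantile normalization 1 member, Vcam1, was at least 2-fold lower after denervation on the control diet (-1.02). The causes of the other changes were not tested.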

Other observations

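Dll1, a Notch ligand, read 19.1 units in genistein denervated and 8.7 in genistein sham muscle, and 157 units in control denervated and 6.3 in control sham muscle, above the floor in control denervated muscle alone, and it was singled out after its values were seen. Lama5, a laminin chain, had log2 denervation ratios of at least 3.14 on genistein, where the sham signal was below the floor, and 2.82 on the control diet for the brightest probe set. Its 3 probe sets spanned ratios from 0.01 to 3.14 and from -0.25 to 2.82. Prkca, the protein kinase C that binds the Sdc4 tail, read 181 units in genistein denervated and 237 in genistein sham muscle, and 101 units in control denervated and 274 in control sham muscle.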
